A study of Mus musculus with 2 samples.

Results

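Interferon regulatory factors are transcription factors that bind DNA elements built around GAAA repeats. The family members outside the ISGF3 complex described here are Irf1, Irf2, Irf3, Irf4, Irf5, Irf7 and Irf8. They were chosen by gene symbol from the feature table, 7 of the 27998 genes it lists, and every one had 1 entry. ISGF3 itself is the complex, with Irf9 as its DNA-binding family member, that carries the signal of the type I interferon receptor to DNA.

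Irf4 and Irf8 are known as lineage factors: Irf8 is needed for cross-presenting type 1 conventional dendritic cells (cDC1) and is high in plasmacytoid dendritic cells, and Irf4 acts in type 2 conventional dendritic cells (cDC2), plasma cells and activated T cells. Irf3, Irf5 and Irf7 are held in the cytoplasm until kinases downstream of nucleic acid sensors phosphorylate them, and then drive interferon and cytokine genes. Irf3 and Irf5 protein is largely present beforehand, whereas the Irf7 gene is itself switched on by interferon, a loop that amplifies the response. Irf1 is induced by type II and type I interferon and drives antigen presentation and chemokine genes, and Irf2 binds many of the same elements and was first described as its antagonist.

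The cells came from subcutaneous tumors of B16F10, a mouse melanoma line, grown for 14 days in C57BL/6 mice. Hosts were Usp18f/f mice, which carry floxed Usp18 alleles with no Cre and served as controls, or Usp18f/f LysM-Cre mice, in which Cre is made from the lysozyme 2 locus that is active in macrophages, monocytes and neutrophils. Both groups thus carry the floxed alleles. Usp18 encodes a protease that removes ISG15 and that dampens signalling at the type I interferon receptor. Live CD45+ cells of 4 tumors per group were pooled into 1 library per group, so no difference between the libraries below has a replicate check, no test was made, and intervals cover counting error only.

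Gene positions are those of GRCm38 with the GENCODE M21 annotation. Irf1 lies at chr11:53770014-53778374 on the plus strand, Irf2 at chr8:46739732-46847458 (plus), Irf3 at chr7:44997648-45002848 (plus) and Irf4 at chr13:30749226-30766976 (plus). Irf5 lies at chr6:29526625-29541871 (plus), Irf7 at chr7:141262706-141266481 (minus) and Irf8 at chr8:120736358-120756694 (plus). Genes on the opposite strand overlap Irf1 (Gm17334), Irf3 (Bcl2l12), Irf5 (Tnpo3), Irf7 (Phrf1) and Irf2 (3 predicted genes), and Irf8 overlaps the predicted gene Gm20388 on its own strand. Whether the counting used strand is not given in the sources used here.

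Promoters were searched because the comparison sets inducible factors against lineage factors, and the short elements that interferon-activated complexes bind are part of that distinction. The 250 bases before the RefSeq gene start (GRCm38.p6) were read on both strands for GAAANNGAAA (the core of the element bound by ISGF3 and by these factors), TTCNNNGAA (the gamma-activated site) and GGAANNGAAA (the composite element of Ets and Irf factors). Of 32851 RefSeq promoters, 978 (2.98%) held the first, 2306 (7.02%) the second and 756 (2.30%) the third. In the 60-base stretches below, all 5′ to 3′ on the gene's strand and all ahead of the annotated gene, capitals mark every match.
Irf1, chr11:53769898-53769957, plus strand: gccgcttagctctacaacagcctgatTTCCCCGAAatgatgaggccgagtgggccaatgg
Irf2, chr8:46739495-46739554, plus strand: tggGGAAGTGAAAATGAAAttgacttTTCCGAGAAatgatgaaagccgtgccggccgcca
Irf8, chr8:120736170-120736229, plus strand: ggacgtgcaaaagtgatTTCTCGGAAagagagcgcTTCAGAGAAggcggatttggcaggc
Irf7, chr7:141266482-141266541, minus strand: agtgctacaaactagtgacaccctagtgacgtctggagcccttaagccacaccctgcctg

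The Irf1 window held 1 TTCNNNGAA match, 90 bases before the start. In Irf2 the match to GGAANNGAAA at 247 bases runs into the match to GAAANNGAAA at 241 bases, and a TTCNNNGAA match follows at 224 bases. Irf8 held 2 TTCNNNGAA matches, at 171 and 153 bases. None of the 3 letter patterns occurred in the windows of Irf7, Irf3, Irf4 or Irf5, nor in the window of the second RefSeq start listed for Irf1 and for Irf8. A match is a description of the letters and no evidence of binding.

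The control library held 7754 barcodes with 43412346 unique molecular identifiers (UMIs, 1 per captured transcript) and the library labelled LysM-Cre 6063 barcodes with 48167632 UMIs, at a median of 2600 and 4455 per barcode. After filters, 6684 and 5466 cells were kept, of which 5570 (83.3%) and 4452 (81.5%) were gated into classes by 8 marker genes per class. The rest were mixed (487 and 544) or ungated (627 and 470), and 929 and 659 gated cells lay next to a threshold of the gate. The libraries shared 7 barcodes. Each class had 3 to 7 of its own markers among its 10 leading genes and at most 1 marker of another class. Since the gate used these same markers, that count describes the gate and is no independent check of the classes. Neutrophils numbered 458 in the control library and 23 in the other, so they were not compared.

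The labels were checked in macrophages and monocytes together (mononuclear phagocytes, 1595 control cells and 2375 of the other library). Usp18 stood at 18.6 counts per 1000000 UMIs (CPM) in the control and 93.5 CPM in the library labelled LysM-Cre, 5.02-fold (4.39 to 5.75) higher and against the label. The labels do not say which exons are floxed, and a 3′ tag outside the deleted part checks nothing. Lyz2, whose locus carries the Cre, stood at 9555 and 17.4 CPM, lower in the library whose label names the Cre. The labels do not give the number of Cre alleles, and the libraries differ in Lyz2 itself as well. The pools also differed in the sex of their cells: of phagocytes with either Xist or Y-linked UMIs, 32.3% were Xist cells in the control library and 83.2% in the other. The library comparison and the sex mix cannot be told apart in the pooled values, so values within cells of 1 sex are given for results in which they differ from the pooled value.

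Irf8 had a steep class pattern, with the same leading classes in both libraries. In plasmacytoid dendritic cells, the specialised producers of interferon, its level was 4501 CPM (4331 to 4676) in the control and 4186 CPM (3969 to 4412) in the library labelled LysM-Cre. In cDC1 it was 2568 CPM (2487 to 2651) and 2535 CPM (2444 to 2629). When all cells were cut down at random to 1000 UMIs (thinned), 98.4% and 95.6% of plasmacytoid cells and 89.7% and 90.7% of cDC1 had an Irf8 UMI. Melanoma cells that passed the CD45 sort and should lack the gene had one in 1.39% and 1.63%. NK cells came next, with 735 and 867 CPM, and their intervals overlap no other class of the control library. B cells (427 and 369 CPM) and migratory dendritic cells (444 CPM in the control) could not be ordered in the control.

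Macrophages and monocytes shared an intermediate Irf8 level of 262 and 246 CPM in the control and 243 and 242 CPM in the other library. CD4 T cells had 20.1 and 13.6 CPM, from 11 and 3 UMIs. Because macrophages were many, they still supplied 17.8% of the Irf8 UMIs of the gated control classes and 28.6% in the other library, against 32.0% and 26.2% from cDC1 and 22.1% and 12.6% from plasmacytoid cells. These shares depend on the numbers of cells, and fewer cells of a class and less RNA per cell cannot be told apart in them. Among control neutrophils the 93.9 CPM of Irf8 came to 79.6% from 1 cell.

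**Figure D1:**
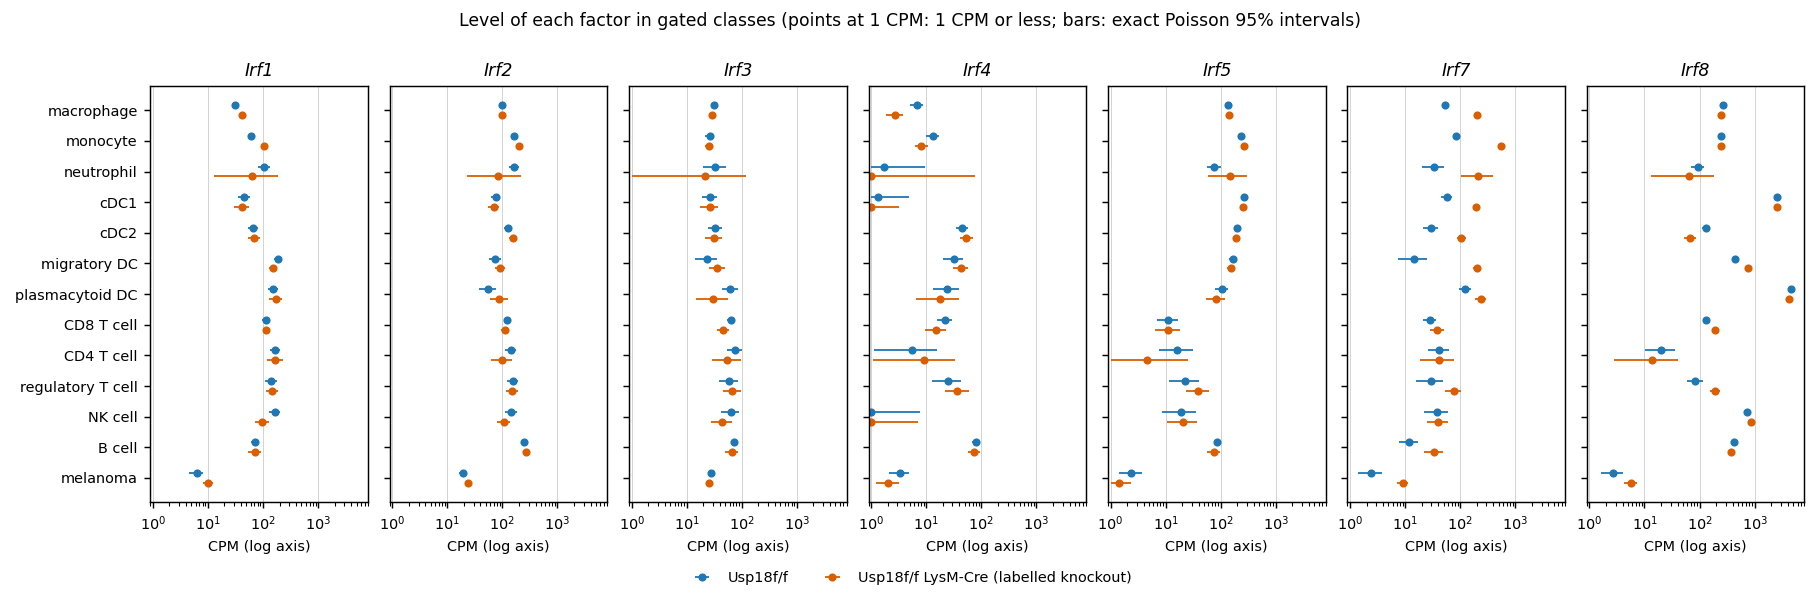
Level of each factor (CPM on a log axis) in 13 gated classes. Blue points are the control library, orange points the library labelled LysM-Cre, and bars are exact Poisson 95% intervals. Irf8 peaks in plasmacytoid cells (4501 and 4186 CPM) and cDC1 (2568 and 2535 CPM) in both libraries, while the Irf7 points of the 2 libraries lie apart in macrophages (53.2 and 206 CPM) and monocytes (85.9 and 558 CPM).

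Irf4 marked other classes. B cells had the highest level, 79.2 CPM (67.8 to 92.0) in the control and 75.0 CPM (57.3 to 96.6) in the library labelled LysM-Cre. Thinned to 1000 UMIs, 7.01% and 6.86% of B cells had an Irf4 UMI. cDC2 followed with 45.1 and 53.9 CPM and migratory dendritic cells with 31.5 and 43.4 CPM, and the intervals of these neighbours overlap. In cDC1, where Irf8 was high, 2 Irf4 UMIs were counted in the control and 0 in the other library. NK cells had 0 in both, and the floor of 3 UMIs corresponds to 6.32 and 5.71 CPM. Melanoma cells stood at 3.33 and 2.05 CPM, on 25 and 19 UMIs. Irf4 is known from melanocytes too, so this level is not taken as background.

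Cells with both lineage factors were counted after thinning. Of the control cDC1, 113 had an Irf8 UMI alone, 0 an Irf4 UMI alone, 0 both and 13 neither. Of the control cDC2, 17 had Irf8 alone, 5 Irf4 alone and 1 both, with 152 showing neither at this depth. B cells carried both genes as a class: 420 control cells had Irf8 alone, 65 Irf4 alone and 28 both, and 813 had neither. Plasmacytoid cells with an Irf4 UMI numbered 6 in the control and 0 in the other library. All 6 had Irf8 as well, but so did 98.3% of the control plasmacytoid cells without an Irf4 UMI.

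Irf5, which acts downstream of endosomal Toll-like receptors, followed the myeloid classes and B cells. cDC1 had 266 CPM in the control and 250 CPM in the other library, monocytes 235 and 264 CPM, cDC2 202 and 191 CPM, migratory dendritic cells 166 and 156 CPM, and macrophages 136 and 142 CPM. Plasmacytoid cells had 104 and 81.5 CPM and B cells 87.0 and 75.0 CPM. T and NK classes lay between 4.55 and 39.1 CPM, on 1 to 23 UMIs each, and melanoma cells at 2.40 and 1.40 CPM. Monocytes thus carried more Irf5 than macrophages in both libraries, with intervals that do not overlap.

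Irf2 was broad. B cells led with 250 CPM (229 to 272) in the control and 273 CPM (238 to 311) in the other library, above the next class, monocytes, at 163 and 201 CPM. In the control the other immune classes ran from 54.7 CPM in plasmacytoid cells to 162 CPM in neutrophils, and melanoma cells were lowest at 19.6 and 23.8 CPM. Irf3, the sensor-activated factor made by most cells, spanned the smallest range of the 7 genes in the control. It ran from 23.0 CPM (13.9 to 35.9) in migratory dendritic cells to 74.8 CPM (53.7 to 101) in CD4 T cells, and melanoma cells had 28.1 CPM.

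Irf7 separated the libraries. In mononuclear phagocytes its level was 63.7 CPM (59.4 to 68.1) in the control and 339 CPM (331 to 347) in the library labelled LysM-Cre, from 837 and 7075 UMIs. The 2 intervals lie far apart, and the ratio was 5.33-fold (4.96 to 5.73), a log2 ratio of 2.33 on the scale of log2(CPM + 5). Of 11741 genes with at least 20 UMIs in this class, 2.21% were past 1.5-fold higher and 0.664% past 1.5-fold lower. Irf7 lay above 22 of 33 interferon-stimulated genes of the list described below, whose median log2 ratio was 1.53. In thinned cells, 6.08% (4.95 to 7.37) of control phagocytes and 26.3% (24.5 to 28.2) of the others had an Irf7 UMI.

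With cells of both sexes pooled, the ratio was larger in monocytes than in macrophages. Monocyte Irf7 was 85.9 CPM in the control and 558 CPM in the other library (6.51-fold, 5.86 to 7.24), and in macrophages it was 53.2 and 206 CPM (3.88-fold, 3.502 to 4.30). The intervals of the 2 ratios do not overlap. In monocytes 4.51% of genes and in macrophages 1.61% were past 1.5-fold higher. Of the Irf7 UMIs in gated classes, monocytes supplied 32.3% in the control library and 51.9% in the other.

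In monocytes and macrophages the direction was the same in cells of each sex. Xist monocytes had 132 and 550 CPM and Y monocytes 84.9 and 467 CPM. Xist macrophages had 50.1 and 240 CPM, and Y macrophages 44.7 and 127 CPM. The ratio was thus larger in monocytes than in macrophages among Y cells, but not among Xist cells. For all phagocytes the log2 ratio was 2.22 in Xist cells and 1.55 in Y cells, the latter lower than the 2.33 of all cells.

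Dendritic cells also had more Irf7 in the library labelled LysM-Cre. Migratory dendritic cells stood at 14.5 CPM in the control (12 UMIs) and 200 CPM in the other library (194 UMIs), 13.8-fold (7.71 to 27.1), where 12.3% of genes were past 1.5-fold higher. Marker UMIs of other cells moved with this result: the summed level of the 8 macrophage markers in these cells was 47.2 and 427 CPM, and that of the 8 monocyte markers 157 and 793 CPM, with no macrophage marker at 0 in either library. Among migratory dendritic cells without any macrophage marker UMI (96 and 72 cells), Irf7 was 16.6 and 103 CPM, a log2 ratio of 2.32 against 3.39 in all of them.

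In cDC1, Irf7 was 56.6 and 195 CPM (3.45-fold, 2.67 to 4.48), with 26.0% of the UMIs of the second value in 1 cell, against 3.4% of genes higher. The macrophage markers summed to 47.2 and 69.1 CPM there. Without cells that held a macrophage marker UMI, the levels were 71.0 and 108 CPM in 85 and 54 cells, and the log2 ratio of 0.57 no longer passed 1.5-fold. In cDC2 it was 29.2 and 105 CPM (3.59-fold, 2.51 to 5.22), with 27.5% of the second library's UMIs in 1 cell, against 5.03% of genes higher, and the macrophage markers summed to 218 and 267 CPM. Without macrophage marker UMIs the log2 ratio in cDC2 was 0.81, from 22 and 17 UMIs in 84 and 35 cells. The 35 cells are fewer than the 50 per library that a compared class needed. Over 11 other settings the cDC2 ratio ran from 0.56, short of 1.5-fold, to 2.56. Plasmacytoid cells, where Irf7 is known to be present before any stimulus, had the highest level of any control class, 123 CPM (96.3 to 155), and 235 CPM (186 to 294) in the other library. Their ratio was 1.91-fold (1.37 to 2.67), against 6.33% of genes higher.

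In lymphoid classes Irf7 rested on few UMIs. CD8 T cells had 28.2 and 38.4 CPM of Irf7, CD4 T cells 42.0 and 40.9 CPM, and NK cells 37.9 and 40.0 CPM, all within 1.5-fold and on 9 to 58 UMIs. The ratio intervals, 0.924 to 2.004, 0.397 to 2.19 and 0.535 to 2.10, still allow a difference of that size. Opposite signs by sex were seen in NK cells, 1.66 in Xist cells (1 and 18 UMIs) and -0.99 in Y cells (11 and 1 UMIs). Regulatory T cells had 29.2 and 76.1 CPM on 14 and 35 UMIs (2.61-fold, 1.37 to 5.25, with 9.42% of genes higher). Their log2 ratio of 1.25 was 0.21 with classes from clusters and 0.46 in cells thinned to 1000 UMIs, both short of 1.5-fold. B cells had 11.97 and 33.8 CPM on 26 and 27 UMIs (2.82-fold, 1.58 to 5.03, with 3.47% of genes higher). Their log2 ratio of 1.19 was 0.16 in Y cells and 0.56 in thinned cells, again short of 1.5-fold. After thinning, 5.50% and 5.56% of regulatory T cells and 1.43% and 2.45% of B cells had an Irf7 UMI. Melanoma cells had 2.40 and 9.06 CPM (0.394% of genes higher) with thinned shares of 0% (up to 2.53%) and 2.86% (1.16 to 5.80), so the B-cell shares lie within the intervals of a class taken as background for free RNA. With 5% of the class total taken off as free RNA, the melanoma ratio turned to -0.15. Over the 12 classes with at least 50 cells per library, Irf7 was past 1.5-fold higher in 9 and lower in 0, with a median log2 ratio of 1.22. The share of all genes past 1.5-fold lower, the background for that 0, was 0.766% in macrophages, 2.52% in monocytes, 6.14% in cDC1, 5.58% in cDC2, 4.85% in migratory dendritic cells and 12.1% in plasmacytoid cells. It was 4.59% in CD8 T cells, 15.6% in CD4 T cells, 12.2% in regulatory T cells, 18.1% in NK cells, 8% in B cells and 0.123% in melanoma cells. In the 3 classes where Irf7 did not pass, 3.26% of genes (CD8 T cells), 7.21% (CD4 T cells) and 8.69% (NK cells) were higher.

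**Figure D2:**
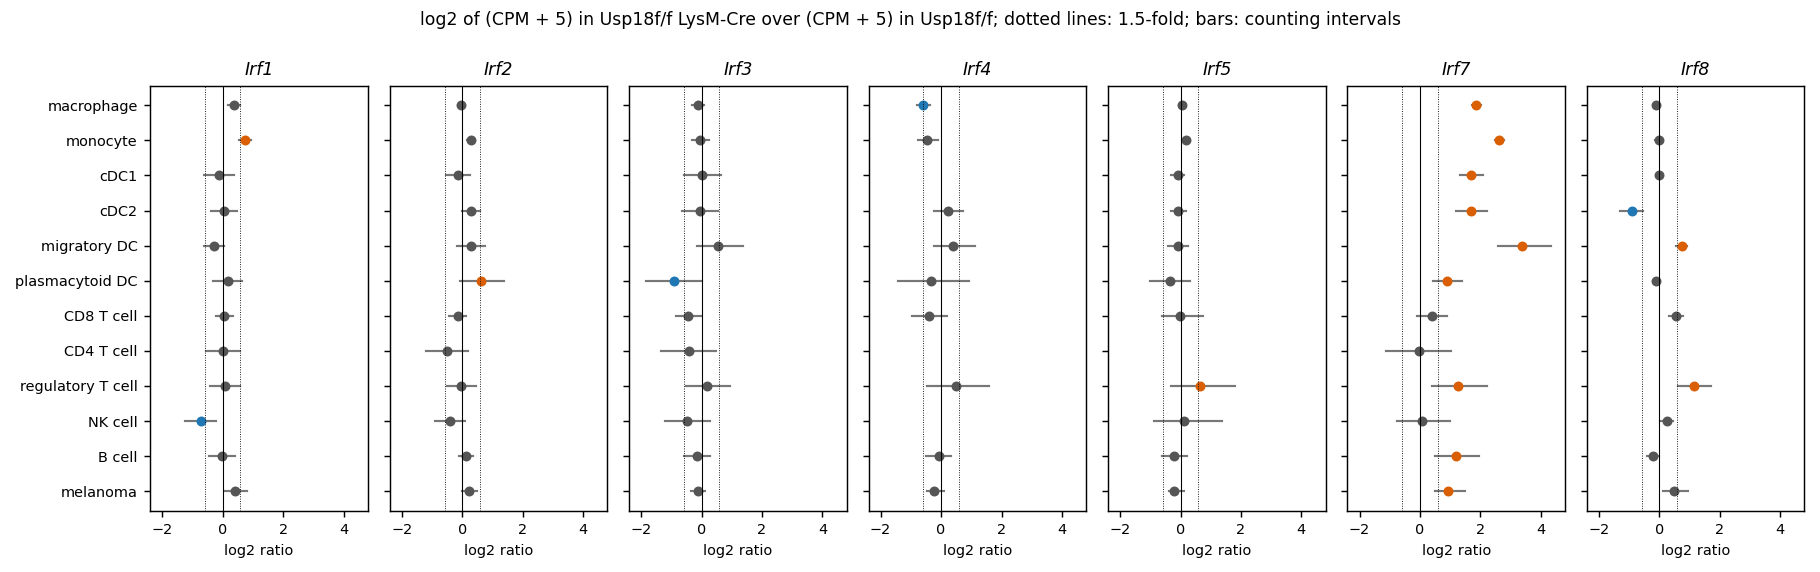
log2 ratio of each factor, library labelled LysM-Cre over control, in 12 classes. Points are log2 of (CPM + 5) over (CPM + 5), bars are counting intervals, dotted lines mark 1.5-fold, and orange and blue points lie past it. Irf7 lies past 1.5-fold higher in 9 classes, from monocytes (2.63) and migratory dendritic cells (3.39) to plasmacytoid cells (0.91), and the other factors in 0 to 2 classes each.

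Irf1 differed less and less widely. In monocytes it stood at 60.2 CPM (53.3 to 67.7) in the control and 104 CPM (96.6 to 112) in the library labelled LysM-Cre, 1.73-fold (1.503 to 1.996). Of all genes, 4.51% were past 1.5-fold higher in monocytes. Macrophages had 31.4 and 42.2 CPM of Irf1, a log2 ratio of 0.37 that does not reach 1.5-fold. Together the phagocytes had 41.2 and 64.6 CPM, 1.57-fold (1.42 to 1.74). That log2 ratio of 0.59 is just past the 0.58 of 1.5-fold, and it fell short under the stricter gate (0.54), with classes from clusters (0.54) and with a class total free of interferon-stimulated, mitochondrial and ribosomal genes (0.57). By sex the values parted: Xist phagocytes had 33.4 and 74.3 CPM, and Y phagocytes 41.0 and 36.9 CPM, a log2 ratio of -0.13. Macrophages made up 408 of 789 Y phagocytes in the control and 238 of 327 in the other library. Within monocytes both sexes were higher in the second library, Xist cells with 42.8 and 107 CPM and Y cells with 73.3 and 104 CPM. Over 11 settings, each sex alone among them, the Irf1 log2 ratio ran from -0.04 to 0.70 in macrophages. In monocytes it ran from 0.48 to 1.22, so both ranges reach either side of the 0.58 of 1.5-fold. The part of the class mix in the Y value of pooled phagocytes was not tested.

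The highest Irf1 levels were found in other classes. Migratory dendritic cells had 184 and 150 CPM, CD4 T cells 166 and 168 CPM, plasmacytoid cells 154 and 172 CPM, regulatory T cells 140 and 146 CPM, and CD8 T cells 112 and 116 CPM. The intervals of the first 4 overlap in each library. NK cells had 164 CPM in the control and 97.1 CPM in the other library, a log2 ratio of -0.73 where 18.1% of genes were past 1.5-fold lower and the median of all genes tested was -0.13. After thinning, 13.7% and 12.95% of NK cells had an Irf1 UMI and the log2 ratio was -0.09.

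Irf2, Irf3, Irf5 and Irf8 lay within 1.5-fold in pooled phagocytes. Irf2 had 125 and 136 CPM (log2 ratio 0.13), Irf5 172 and 183 CPM (0.08), Irf3 29.8 and 27.6 CPM (-0.10) and Irf8 256 and 244 CPM (-0.07), beside a median of -0.025 over all genes tested in the class. For 2 of them the sexes had opposite signs: Irf2 gave 0.36 in Xist cells and -0.35 in Y cells, and Irf5 gave 0.19 and -0.26. Macrophages made up 184 of 376 and 631 of 1623 Xist phagocytes, and 408 of 789 and 238 of 327 Y phagocytes. Over 11 settings, each sex alone among them, the monocyte ratio ran from 0.02 to 0.56 for Irf2 and from 0.02 to 0.35 for Irf5. In macrophages the ranges were -0.25 to 0.06 and -0.15 to 0.36. The part of the class mix in the opposite signs was not tested. Irf4 was low in phagocytes, 8.90 CPM (7.36 to 10.7) in the control and 4.55 CPM (3.68 to 5.57) in the other library, 0.512-fold (0.386 to 0.677). On the log2(CPM + 5) scale that ratio was -0.54, short of 1.5-fold. In macrophages Irf4 was past 1.5-fold lower, 6.78 and 2.69 CPM on 55 and 35 UMIs (log2 ratio -0.62), where 0.766% of genes were. It did not pass under the stricter gate (-0.49), with classes from clusters (-0.41) or in Xist cells (-0.28). The 8 B-cell markers, whose class has the most Irf4, summed to 46.7 CPM in control macrophages and 44.9 CPM in the others. The highest single marker gave 33.3 and 41.4 CPM of these sums, so they say little of the remaining markers. The part of B-cell RNA in the Irf4 values was not tested. Cells gated as B cells made up 1368 of the 6684 control cells and 422 of the 5466 others.

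Irf8 was past 1.5-fold in 3 of the 11 classes tested, higher in 2 and lower in 1. Migratory dendritic cells had 444 CPM (400 to 492) in the control and 745 CPM (692 to 802) in the library labelled LysM-Cre, 1.68-fold (1.48 to 1.91). In this class 12.3% of all genes were past 1.5-fold higher. Without macrophage marker UMIs the Irf8 values were 483 and 793 CPM. In Y cells of this class the log2 ratio was 0.07. cDC2 had 131 and 67.3 CPM, a log2 ratio of -0.91 where 5.58% of genes were lower, with 18.3% of the control UMIs in 1 cell. With classes taken from clusters that ratio was 0.51 and under the stricter gate 0.02, and 76 and 48 of the 175 and 107 gated cDC2 lay next to a threshold of the gate. Against 9.42% of genes higher, regulatory T cells had 83.3 and 191 CPM on 40 and 88 UMIs. In them the summed level of the 8 cDC1 markers was 106 and 263 CPM and that of the 8 cDC2 markers 68.7 and 304 CPM, with 5 and 3 of them at 0 in the control and 0 in the other library. In those without a cDC1 or cDC2 marker UMI (64 and 59 cells) Irf8 was 86.0 and 167 CPM. In Xist cells the counts were 3 and 63 UMIs and in Y cells 31 and 1.

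In migratory dendritic cells Irf2 and Irf5 were within 1.5-fold when pooled, 73.9 and 91.9 CPM and 166 and 156 CPM. There Irf2 gave 1.33 in Xist cells and -1.02 in Y cells, and Irf5 0.88 and -0.88.

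Among the other values past 1.5-fold, plasmacytoid cells had 54.7 and 87.5 CPM of Irf2 on 32 and 29 UMIs (1.60-fold, 0.934 to 2.73). Irf3 in these cells stood at 61.5 and 30.2 CPM on 36 and 10 UMIs (0.491-fold, 0.217 to 1.01), with thinned shares of 7.14% and 7.35%. Irf5 in regulatory T cells was 22.9 and 39.1 CPM on 11 and 18 UMIs (1.71-fold, 0.764 to 4.00). The 3 intervals include 1. In plasmacytoid cells 6.33% of genes were past 1.5-fold higher and 12.1% lower, and in regulatory T cells 9.42% were higher.

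Phagocytes were next ordered by their interferon-stimulated UMIs, counted over the list of 33 measured genes among the 1000 UMIs of a thinned cell. In the control 52.2% of cells had 0 to 2 such UMIs and 1.14% had 20 or more. In the library labelled LysM-Cre the shares were 17.2% and 14.9%. Irf7 climbed with the bins in both libraries, from 19.4 CPM (11.1 to 31.5) through 53.5, 161 and 364 CPM to 1056 CPM (636 to 1648) in the control. In the other library it went from 84.0 CPM (57.8 to 118) through 129, 214 and 551 CPM to 1544 CPM (1415 to 1682). In the 2 lowest bins the libraries' intervals do not overlap, although the mean number of interferon-stimulated UMIs there was 0.984 and 1.35 in the first and 3.77 and 3.98 in the second. In the 3 upper bins the intervals overlap, the mean in the top bin being 24.7 and 38.4 UMIs. The control value was still the lower one in each of these 3 bins, on 33, 24 and 19 UMIs, so the overlap does not show equal levels. In the bin of 10 to 19 it was 364 CPM (233 to 541) against 551 CPM (489 to 618), at means of 12.6 and 13.4 interferon-stimulated UMIs.

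The other factors followed this order to different extents. Irf1 went from 23.1 to 333 CPM in the control, the last on 6 UMIs, and from 45.8 to 165 CPM in the other library. Irf2 went from 86.5 to 268 CPM and Irf5 from 160 to 277 CPM in the library labelled LysM-Cre, with no overlap between the lowest and the highest bin. The lowest bin there held 288 macrophages and 94 monocytes, the highest 80 and 228. Within macrophages Irf5 was 142 and 163 CPM in these bins, and within monocytes 223 and 329 CPM, with overlap in each class. Irf2 was 66.0 and 275 CPM within macrophages, without overlap, and 138 and 268 CPM within monocytes, with overlap. The part of the class mix in the pooled order was not tested. In the control the intervals of the lowest and highest bins overlap for both genes, 125 and 222 CPM for Irf2 and 143 and 222 CPM for Irf5, the top bin on 4 UMIs each. Irf8 of the pooled phagocytes ranged from 202 to 319 CPM in the library labelled LysM-Cre and from 231 to 327 CPM in the control. In monocytes of the library labelled LysM-Cre it went from 128 CPM (66.0 to 223) in the lowest bin to 311 CPM (243 to 393) in the highest. In macrophages of that library it was 281 and 250 CPM, and in control monocytes 176 and 200 CPM, the last on 2 UMIs, with overlap in each pair. Irf3 and Irf4 showed no such order. Members were not among the genes that set the bins.

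**Figure D3:**
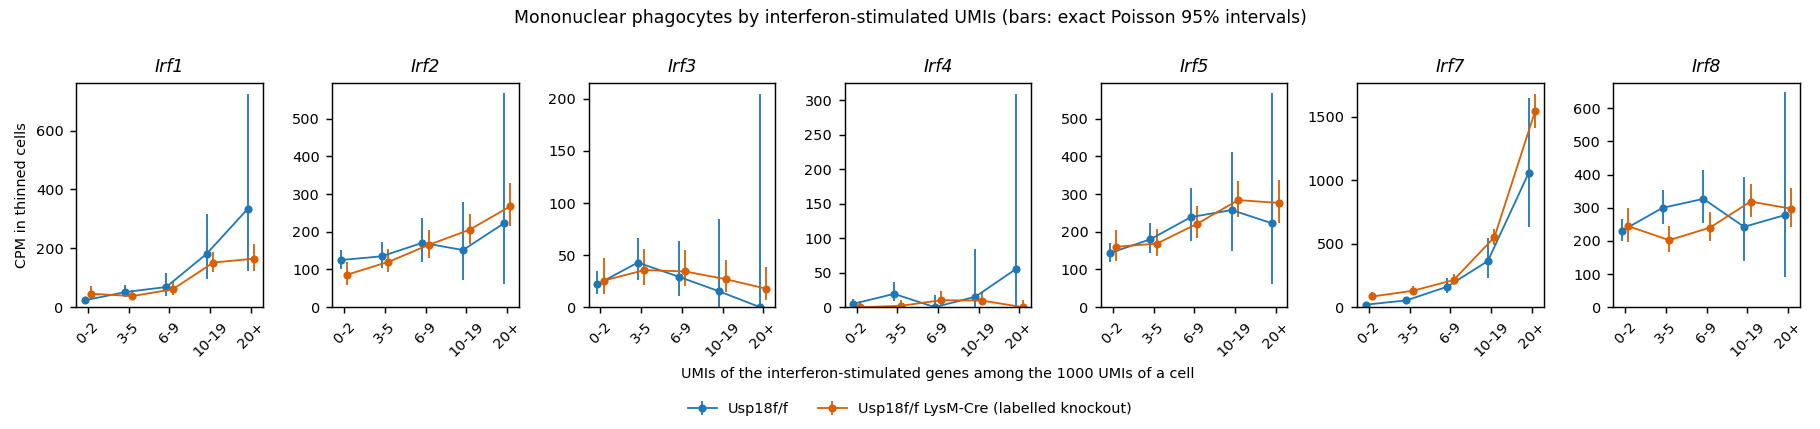
Level of each factor (CPM in cells thinned to 1000 UMIs) in mononuclear phagocytes binned by UMIs of the interferon-stimulated list. Blue is the control library, orange the library labelled LysM-Cre, and bars are exact Poisson 95% intervals. Irf7 reaches 1056 and 1544 CPM in the top bin, while Irf8 of the pooled phagocytes ranges from 202 to 327 CPM over all bins.

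Clusters of the phagocytes, formed without these 7 genes, the interferon-stimulated list, Usp18, Lyz2 or sex-linked genes, were compared with themselves across libraries. Irf7 was higher in the library labelled LysM-Cre in all 6 clusters that held at least 50 gated phagocytes of each library. The ratio was smallest in the cluster led by Igf1, Gas6 and Vcam1, 58.2 and 130 CPM (2.23-fold, 1.91 to 2.60). It was 3.60-fold in the cluster led by Cxcl9, Dmkn and Vcan (87.9 and 317 CPM) and 3.36-fold in the cluster led by Hist1h1b and other genes of dividing cells (33.0 and 111 CPM). The clusters led by Thbs1, Ppbp and Arg1 and by Ace, Adgre4 and Hp, the latter known from patrolling monocytes, had 41.7 and 260 CPM (6.24-fold) and 93.3 and 568 CPM (6.09-fold). A cluster led by Rsad2, Ifit1bl1 and Cmpk2, themselves interferon-stimulated, held 113 control cells (7.09% of phagocytes) and 545 of the other library (23.0%), with Irf7 at 75.5 and 709 CPM. Its leading genes were taken over both libraries together, and Ifit1bl1 was not on the list left out of the clustering. The 75.5 CPM of its control cells lies within the 33.0 to 93.3 CPM of the other control clusters. Usp18 in it was 27.1 and 252 CPM, so its cells were not alike across libraries in these genes.

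Irf1 differed by cluster. In the Ace-led cluster it was 87.8 and 194 CPM (2.21-fold, 1.78 to 2.75) and in the Thbs1-led cluster 18.2 and 44.4 CPM (2.45-fold, 1.63 to 3.75). The Rsad2-led cluster had the largest ratio, 15.5 and 76.1 CPM (4.91-fold, 2.99 to 8.68), the first on 16 UMIs. That ratio sets control cells with Irf7 at 75.5 CPM against cells with 709 CPM. The Cxcl9-led cluster had 70.1 and 94.5 CPM (1.35-fold, 1.12 to 1.62) and the dividing cluster 24.7 and 37.1 CPM (1.502-fold, 1.08 to 2.12). In the Igf1-led cluster it was 27.9 and 26.9 CPM (0.963-fold, 0.744 to 1.25). Gated macrophages lay in the Igf1-led cluster to 47.3% in the control and 37.3% in the other library. Irf8 ranged only from 185 to 359 CPM over these clusters and both libraries, the highest in the Ace-led cluster, where it was 273 and 359 CPM.

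**Figure D4:**
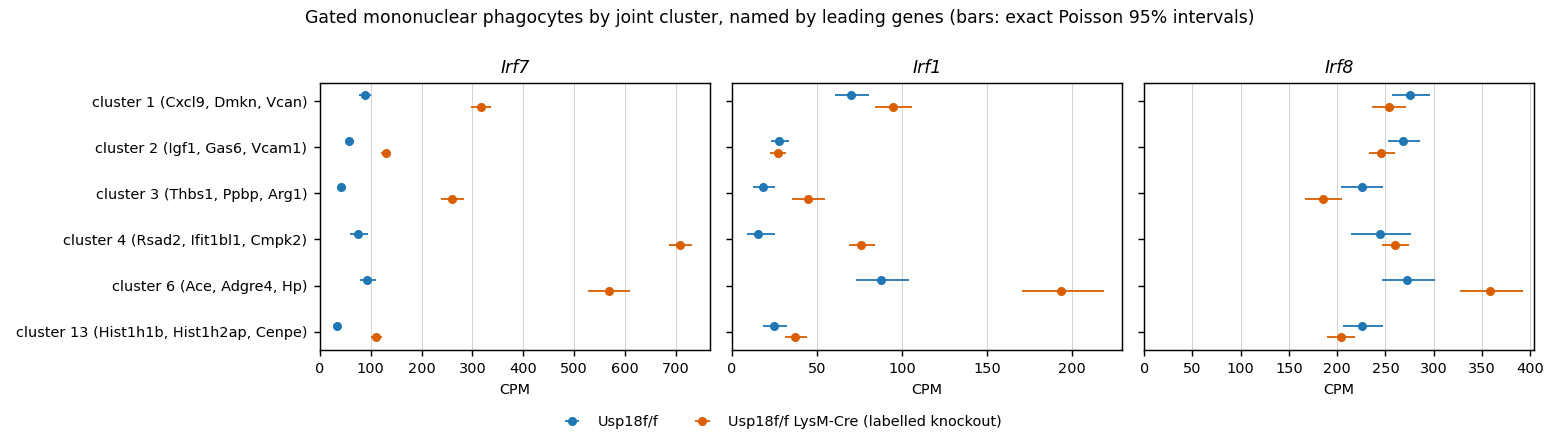
Levels of Irf7, Irf1 and Irf8 (CPM) in 6 clusters of gated mononuclear phagocytes, named by their leading genes. Blue is the control library, orange the library labelled LysM-Cre, and bars are exact Poisson 95% intervals. The Irf7 intervals lie apart in every cluster shown, those of Irf1 overlap in the Igf1-led cluster (27.9 and 26.9 CPM), and those of Irf8 lie apart in the Ace-led cluster (273 and 359 CPM).

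CD8 T cells were split by how many of 6 checkpoint genes (Pdcd1, Havcr2, Lag3, Tigit, Tox and Entpd1, receptors and regulators known from chronically stimulated T cells) had a UMI. The 142 control cells with at least 2 had 226 CPM of Irf8 (198 to 257), and the 353 with 0 or 1 had 32.8 CPM (22.7 to 45.9). In the library labelled LysM-Cre, 89 and 205 such cells had 326 and 48.8 CPM. Since cells with more checkpoint genes were deeper, at a median of 5154 against 2696 UMIs in the control, thinned shares were compared as well: 17.6% against 1.42% in the control and 18.0% against 3.92% in the other library had an Irf8 UMI.

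Irf4 took the same order, 34.3 and 9.65 CPM in the control and 28.5 and 1.44 CPM (1 UMI) in the other library. Irf1 took the opposite one, 64.6 CPM in cells with at least 2 checkpoint genes and 158 CPM in the rest in the control, and 73.3 and 161 CPM in the other library. Thinned shares for Irf1 were 7.75% and 17.9% in the control, and 11.2% and 15.7% in the other library, where their intervals overlap. For Irf2 and Irf3 the intervals of the 2 subsets overlapped in both libraries. CD8 T cells as a whole had 129 and 191 CPM of Irf8, with 64.0 and 206 CPM in Xist cells and 158 and 151 CPM in Y cells.

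**Figure D5:**
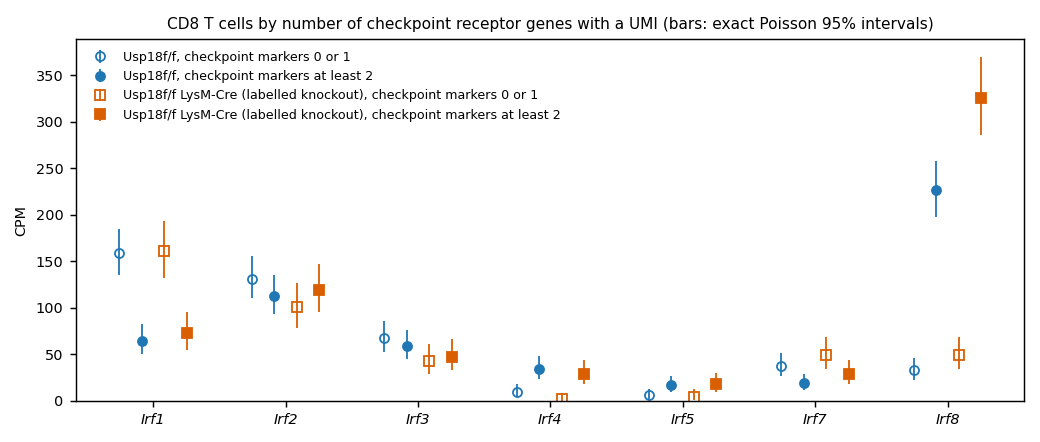
Level of each factor (CPM) in CD8 T cells with 0 or 1 (open symbols) and with at least 2 (filled symbols) checkpoint genes detected, control library as blue circles and library labelled LysM-Cre as orange squares; bars are exact Poisson 95% intervals. Irf8 is higher in the filled symbols (226 and 326 CPM against 32.8 and 48.8 CPM) and Irf1 lower (64.6 and 73.3 CPM against 158 and 161 CPM).

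Other genes of the pathway were counted in mononuclear phagocytes, on the same rule and beside the same 2.21% of genes higher and 0.664% lower. Of the ISGF3 genes, Stat2 had 41.7 and 85.4 CPM (2.05-fold), past 1.5-fold, and Irf9 had 52.0 and 64.6 CPM (1.24-fold), which is not. All 33 measured of 34 interferon-stimulated genes were past 1.5-fold higher, from Rsad2, an antiviral enzyme (log2 ratio 3.88), and Ifit3 (3.25) to Ly6e (0.73) and Eif2ak2, the kinase PKR (0.59). The list of sensors, adaptors and kinases upstream of Irf3, Irf5 and Irf7 had 3 of 24 higher and 0 lower, with a median of -0.01. Its highest members were the RNA sensors Ifih1 (1.23) and Ddx58 (1.03), and its lowest the adaptor Mavs (-0.28) and the kinase Irak4 (-0.31).

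Among partners and co-factors of Irf4 and Irf8, 0 of 16 were higher and 1 lower, with a median of -0.05. Batf2 (0.50) and Id2 (0.35) had the highest ratios and Jund (-0.23) and Klf4 the lowest, Klf4, a factor of monocyte identity, going from 156 to 94.8 CPM. Of 14 genes used as readouts of Irf1, 7 were higher and 0 lower, with a median of 0.59. Cxcl10, a chemokine for T cells that interferon-stimulated lists also hold, had 83.1 and 589 CPM (2.75) and Socs1, a feedback inhibitor, 1.15. Cxcl9 had 130 and 135 CPM (0.05), and Ciita, the regulator of MHC class II genes, -0.49. Of 15 type I interferon genes 1 reached 20 UMIs, Ifnb1 with 2 and 29 UMIs. Of 4 measured effector genes tied to Irf4, Il10 (1.04, from 38 and 234 UMIs) and Icos (0.60) were higher, while Xbp1 (-0.01) and Prdm1 (-0.34) were within 1.5-fold. Icos is best known from T cells, and markers of lymphocytes were higher beside Il10 and Icos: the 8 T-cell markers summed to 21.4 and 38.4 CPM in phagocytes (282 and 800 UMIs) and the 8 NK markers to 4.94 and 20.5 CPM, with 0 of either list at 0, and their part was not tested. None of 4 other family and binding genes passed: Irf9 (0.29), Irf2bp1 (0.03), Irf2bpl (-0.01) and Irf2bp2 (-0.27).

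Genes with the most similar pattern were found by Pearson's r of log2(CPM + 5) over 24 values, 12 classes in each of 2 libraries, among 10753 candidates. The values share libraries and depth, so r is a description. Irf7 was closest to Usp18 (0.894), Trim30d (0.847) and Slc25a22 (0.834). Irf8 was closest to BC035044 (0.830), P2ry14 (0.803) and Cd47 (0.773), and Irf4 to Ccr6 (0.779), Gpr107 (0.739) and Il21r (0.728). Irf5 was close to Rp2 (0.945) and Spi1 (0.939), which encodes the myeloid and B-cell factor PU.1. Irf1 was closest to the MHC class I gene H2-K1 (0.940), Clec2d (0.937) and H2-Q7 (0.914), Irf2 to Gmfg (0.888), Ptk2b (0.883) and AI504432 (0.883), and Irf3 to Zer1 (0.942), Gpr174 (0.941) and Otud4 (0.935). Among the 7 factors themselves r ran from -0.412 for Irf3 with Irf5 to 0.625 for Irf5 with Irf8, and Irf4 with Irf8 gave 0.0287.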

How the data were processed

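The files hold raw UMI counts per gene and barcode, deposited by the authors and made with Cell Ranger 3.0.1 on mm10, per the submitters' processing notes. The annotation behind the counts is not given in the sources used here. Called cells only were deposited, with at least 500 UMIs each. Barcodes under 200 genes or above 10% mitochondrial UMIs were dropped, and the top Scrublet scores (0.8% per 1000 barcodes) were removed as doublets (402 control, 263 labelled LysM-Cre). A cell took the class with the most of its 8 markers detected, at least 3 and at least 2 more than the next class. The split of phagocytes needed at least 2 of 8 shared markers. UMIs were summed per class to CPM with exact Poisson 95% intervals, and ratios have exact conditional binomial intervals. A pseudocount of 5 CPM was used for log2 ratios, and genes needed 20 UMIs over both libraries. Shares after thinning to 1000 UMIs have Clopper-Pearson intervals in the tables. All 7 factors passed the UMI filter in phagocytes. Clusters (24, of which 3 stayed unnamed) came from Leiden at resolution 1 on 30 components, 15 neighbours and 2000 variable genes. Genes named beside the factors are the 3 most alike in pattern and the 2 highest and 2 lowest of each pathway list, apart from some that are not reported here. Members and lists were chosen with earlier results of these data known. Scripts were tested on simulated data. Python 3.11.15, scanpy 1.11.5, scikit-learn 1.9.0, leidenalg 0.10.2, scipy 1.17.1 and numpy 2.4.6 were used.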

Additional observations from a re-analysis of the deposited data

Results flagged for a closer look

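Some ratios had opposite signs in Xist cells and in Y cells of the same class, and the difference between the sexes was not tested. In migratory dendritic cells the log2 ratio of Irf2 was 1.33 in Xist cells (4 and 66 UMIs) and -1.02 in Y cells (41 and 5 UMIs), and that of Irf5 was 0.88 (10 and 114 UMIs) and -0.88 (100 and 14 UMIs). Irf7 in NK cells gave 1.66 (1 and 18 UMIs) and -0.99 (11 and 1 UMIs). For Irf8 in regulatory T cells the values were 2.50 (3 and 63 UMIs) and -1.94 (31 and 1 UMIs). All but the Y-cell value of Irf5 rest on 1 to 10 UMIs in at least 1 library.

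Ratios also had opposite signs between classes, again untested. Irf1 had 0.74 in monocytes and -0.73 in NK cells. Irf8 had -0.91 in cDC2, 0.74 in migratory dendritic cells and 1.15 in regulatory T cells.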

How the results depend on the processing

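The cause of the shifts below was not tested. In mononuclear phagocytes, Xist cells alone gave log2 ratios of 1.04 for Irf1, 0.36 for Irf2, 0.19 for Irf5 and 2.22 for Irf7. Y cells alone gave -0.13 for Irf1, a changed sign, -0.35 for Irf2, -0.26 for Irf5, 1.55 for Irf7 and -0.14 for Irf8. Thinning every cell to 1000 UMIs gave 0.84, 0.27, 0.35 and 2.51 for Irf1, Irf2, Irf5 and Irf7. A pseudocount of 1 CPM gave -0.83 for Irf4. The ratio of Irf1 was 0.54 under the stricter gate and with classes from clusters, and 0.57 with a class total free of interferon-stimulated, mitochondrial and ribosomal genes, all under the 0.58 of 1.5-fold. Signs of called values changed in 3 other classes. Irf8 in cDC2 gave 0.51 with classes from clusters and 0.018 under the stricter gate. In regulatory T cells Irf5 gave -2.60 in Y cells and -0.26 after thinning, and Irf8 -1.94 in Y cells. Irf7 in melanoma cells gave -0.15 after removal of 5% free RNA. The ratios without macrophage, cDC1 or cDC2 marker UMIs were chosen after seeing the data. Genes past 1.5-fold in phagocytes numbered 338, and 326 with at least 100 UMIs. No paired analysis was possible because each group is 1 library, and leaving out a replicate was not possible for the same reason. Depth limits classes with few UMIs: most lymphoid values of Irf4, Irf5 and Irf7 rest on fewer than 60.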
